A study of Schistosoma mansoni with 6 samples.

Results

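The histone genes and the genes of chromatin-modifying proteins were examined in heads and tails of adult female Schistosoma mansoni, the blood fluke. Members were the genes with at least 1 read whose annotation names a histone, a chromodomain, a bromodomain, a polycomb or SWI:SNF protein, chromatin, a nucleosome, a SET domain, a methyl CpG binding protein or a sirtuin. Of the 10831 genes of the table, 9947 had reads and 113 were members. They comprised 21 core and linker histones and 92 other genes, described here apart from the histones. A further 8 matching genes had no read and 3 were left out because their annotation names a zinc finger.

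The head libraries (group Head, n = 3) and tail libraries (group Tail, n = 3) came from female worms recovered from mice 7 to 8 weeks after infection. The sources used here name no transgene or drug for either group. Each worm had been cut in front of and behind the ovary, and each library came from RNA of many pooled fragments, so that the worm-to-worm variation is averaged within a library. Tails hold mostly vitellaria, the follicles that make the yolk and eggshell cells (vitellocytes), together with gut, tegument and other tissues that run along the whole body. In such bulk RNA, fewer cells of a type and less RNA per cell cannot be told apart.

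The table holds counts per gene divided by a size factor and averaged over the libraries of a group (authors' mean), and holds no column of a single library. For genes of low mean, the whole reads of each library were solved from that mean. The size factors were 2.55, 2.35 and 2.08 for the head libraries and 0.72, 0.35 and 0.32 for the tail libraries, and values of single libraries are given below in that order. If the libraries of a group had equal normalised totals, this corresponds to 31.1, 28.7 and 25.4 M reads on genes in heads and 11.8, 5.79 and 5.25 M in tails. A mean made of 3 reads over a whole group equals 0.43 in heads and 2.16 in tails, so tails give less precision. Reads were solved in both groups for 32 members, in tails alone or with heads for 64, and in neither group for 48, which are known by group mean only. The tail means sum to more than the head means, by 0.43 on the log2 scale. The median log2 ratio of all genes with reads in both groups was 0.00 as deposited and −0.43 when both groups were scaled to equal totals, so small positive ratios change sign with the scaling.

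The tissue labels were compared with marker genes. The paper took its oesophageal gland and nanos genes from lists of genes enriched in these same libraries. The direction of those genes is therefore no independent check of the labels. The tyrosinase genes, Smp_014610 and Smp_131110 were known from earlier work as vitelline genes. All 5 vitelline cell genes were higher in tails, by 6.09 to 7.03 on the log2 scale, with summed group means of 6112 in heads and 523859 in tails, and none was at 0 in either group. The nanos gene Smp_055740, which marks the dividing S1 cells of the vitellaria, had normalised counts of 5.10, 54.9 and 48.0 in heads and 567, 641 and 710 in tails. All 4 oesophageal gland genes were lower in tails, with log2 ratios of −7.69 to −7.29. The head libraries were uneven in the vitelline cell genes whose head reads could be solved. The tyrosinase genes Smp_013540 and Smp_050270, which tan the eggshell, had 3.53, 67.3 and 262 and 8.63, 197 and 514 normalised counts in the head libraries, lowest in that of size factor 2.55 and highest in that of 2.08.

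Core histones H2A, H2B, H3 and H4 form the protein spool around which DNA is wound, and the linker histone H1 binds where the DNA enters and leaves it. In animals most histone genes are transcribed when a cell copies its DNA, and variant histones are also made outside of that phase. Modifiers then add or remove acetyl and methyl groups on the histone tails (acetyltransferases, deacetylases, methyltransferases, demethylases), read those marks (bromodomain, chromodomain and polycomb proteins) or move nucleosomes (remodellers). The vitellaria renew their cells from S1 stem cells throughout the life of the female, so that both dividing and highly specialised cells are present in tails.

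Some histone genes, mostly rare ones, differed widely between heads and tails, in both directions, whereas most modifiers differed little. The most abundant gene of each histone class lay within 2-fold. The lowest ratio of a histone with reads in both groups, that of H2A Smp_060760, rests on 1 tail read. The log2 ratio of group means (tails over heads) of the 17 histones with reads in both groups ran from −4.51 to 4.79 with a median of 0.73 (0.30 with equal totals), and 12 of 17 were above 0 (11 with equal totals). Among the 92 other genes the median was 0.32 (−0.11 with equal totals), and 68 were above 0 as deposited but 39 with equal totals. At least 2-fold apart were 15 of the 109 members with reads in both groups that were higher in tails (13.8%), against 14.4% of all such genes, and 5 that were lower (4.59%), against 23.7%. These ratios have no replicate error and are a description.

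In the limma test on genes with reads of single libraries in both groups, 15 of 28 members tested were higher in tails (53.6%), against 22.2% of all 3932 genes tested. Of the same members 3 were lower (10.7%), against 41.5% of all. All 28 had a head mean under 400 and a tail mean under 1500, since more abundant genes could not be solved. These unlike limits admit genes high in tails more readily than genes high in heads. The shares therefore hold for genes within the limits only. By group means, without these limits, 13.8% of members and 14.4% of all genes were at least 2-fold higher in tails. All 3 members that were lower were histones (0 of the 19 others tested were lower, also at an unadjusted p under 0.05). With equal totals 8 of the 15 remained higher, namely 5 histones, the histone RNA hairpin binding protein, 1 MYST acetyltransferase and 1 deacetylase, and 5 were lower, Smp_043580 and Smp_198670 among them. Of all 3932 genes tested, 540 were then higher and 2177 lower. Allowing only solutions with each library within 3-fold of the group mean let 39 members be tested, of which 22 were higher and 3 lower. That limit caps the spread between libraries in advance, so p-values under it can be too low. Leaving out 1 library gave 10 higher without the head library of size factor 2.55 or of 2.35, and 5 lower without the tail library of 0.72. In the fit that needs reads of single libraries in tails only, and takes the head mean as 1 sample, 8 of 58 members were higher (13.8%), against 6.73% of 5971 genes, and 1 was lower (1.72%), against 15.5%. Those 8 were also higher in the first fit. Without the tail library of 0.72, 14 were higher and 3 lower in this second fit. Without that of 0.35 there were 4 and 0 (1 lower at an unadjusted p under 0.05), and without that of 0.32 there were 5 and 0 (again 1).

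The 2 linker histone genes were both higher in tails. Histone H1 Smp_003770, the more abundant, had authors' means of 6889.8 and 12321 for heads and tails, a log2 ratio of 0.84 (0.41 with equal totals). The gene annotated as late histone H1 gamma, Smp_162370, had normalised counts of 5.88, 13.6 and 13.4 in heads and 211, 230 and 241 in tails. The tail libraries were alike, the head library of 2.55 was the lowest of its group, and the groups did not overlap. The reads behind these values were 15, 32 and 28 in heads and 152, 81 and 77 in tails. The mean was 11.0 ± 4.42 (SD, n = 3) in heads and 227 ± 15.0 in tails, and the fitted log2 fold change was 4.33 (SE 0.33, adjusted p = 7.79e-05, limma). Despite this difference the minor gene made up 0.16% of the H1 signal in heads and 1.81% in tails.

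**Figure D1:**
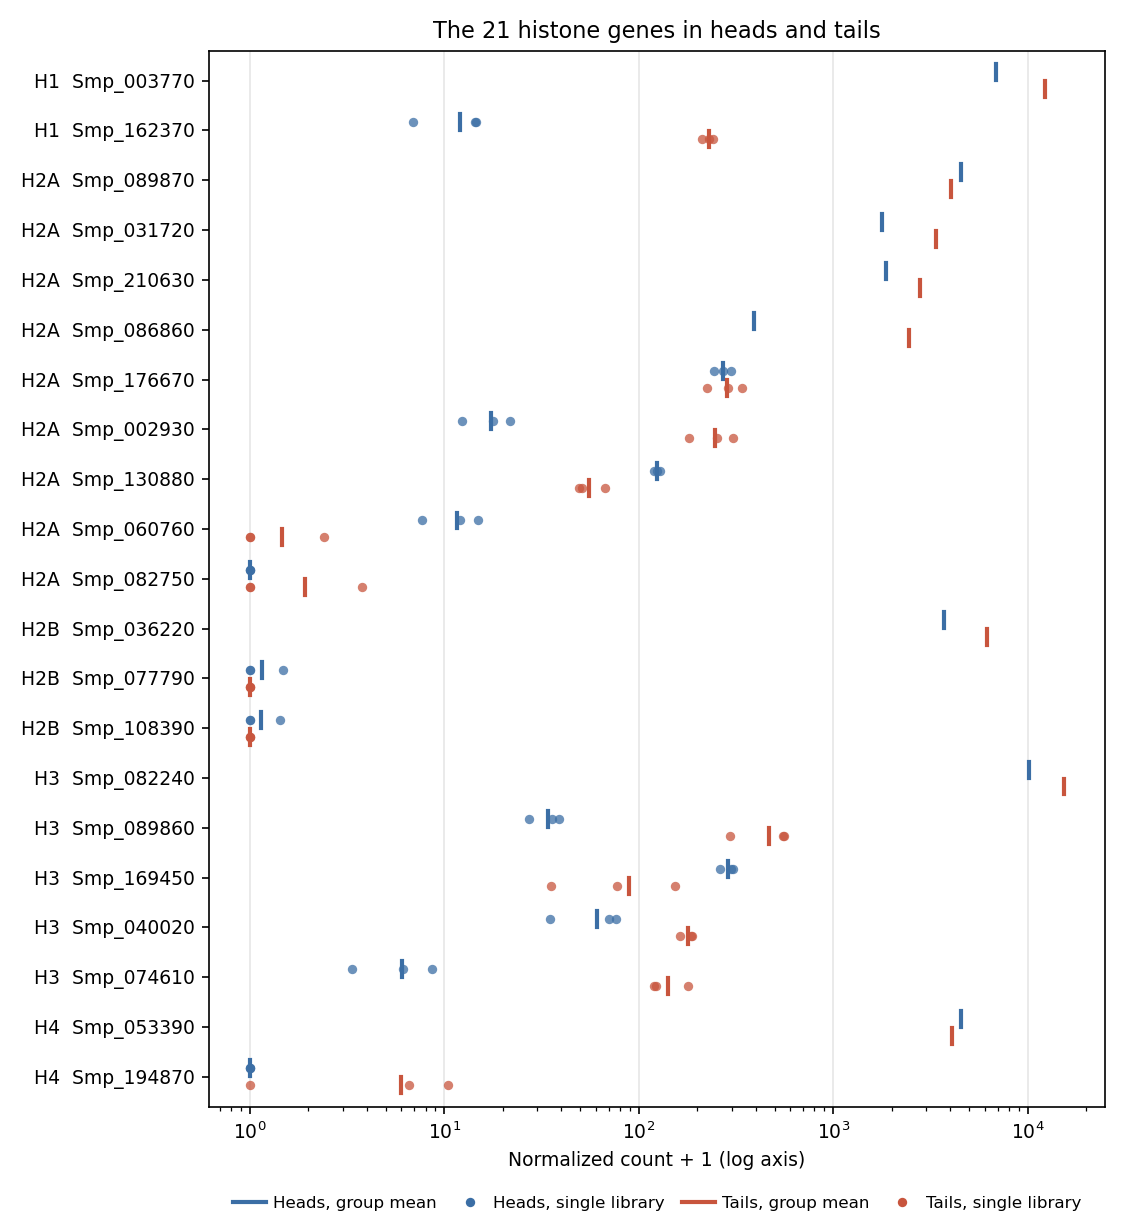
The 21 histone genes, by class, with the normalised count plus 1 on a log axis. Bars are group means of 3 libraries and points the single libraries where reads could be solved (heads blue, tails red). The abundant gene of each class lay within 2-fold between the groups, while H1 gamma Smp_162370, H2A Smp_002930 and H3 Smp_089860 and Smp_074610 were separated by more than 10-fold.

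H3, which carries many of the best known acetyl and methyl marks, had 5 genes. Smp_082240 supplied 96.3% of the H3 signal in heads and 94.6% in tails, with authors' means of 10175 and 15385, a log2 ratio of 0.60 (0.17 with equal totals). The other 4 genes were tested and all differed, 3 higher and 1 lower in tails. Smp_074610 had 2.35, 5.11 and 7.68 normalised counts in heads and 118, 122 and 178 in tails. It was low in every head library, with 6, 12 and 16 reads, and far higher in every tail library. Its log2 fold change was 4.62 (SE 0.41, adjusted p = 0.000118, limma), the largest of any histone tested, and the means were 5.05 ± 2.66 and 139.5 ± 33.7 (SD, n = 3).

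H3 Smp_089860 had 38.0, 34.9 and 26.4 normalised counts in heads and 293, 553 and 560 in tails. The tail library of 0.72 was the lowest of its group but stood well above all head libraries, and the log2 fold change was 3.74 (SE 0.29, adjusted p = 7.79e-05, limma). Its head values ran opposite to those of H1 gamma and of the tyrosinase genes, being highest in the library of 2.55. H3 Smp_040020 had 34.1, 75.3 and 69.6 in heads and 188, 184 and 163 in tails. The tail libraries were alike and all above the heads, where the library of 2.55 was again lowest, and the log2 fold change was 1.64 (SE 0.30, adjusted p = 0.00244, limma).

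H3 Smp_169450 went the other way. It had 305, 296 and 262 normalised counts in heads and 153, 76.6 and 34.4 in tails. Heads were uniform and tails varied more than 4-fold, yet every tail library lay below every head library. The log2 fold change was −1.94 (SE 0.46, adjusted p = 0.00759, limma). The log2 ratio of group means was −1.71, and −2.37 without the tail library of 0.72.

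H2A, the core histone with the most known variants in animals, had 9 genes, and it was the class whose make-up differed most between heads and tails. Smp_089870 made up 50.5% of the H2A signal in heads and 30.5% in tails, with authors' means of 4556.8 and 4023 (log2 ratio −0.18, −0.61 with equal totals). Smp_086860 made up 4.32% in heads and 18.5% in tails, with means of 389.9 and 2439, a log2 ratio of 2.64 (2.22 with equal totals). This was a 6.25-fold difference in a gene too abundant to be tested, since its reads could not be solved in either group. Smp_210630 went from 1869 to 2794 (log2 ratio 0.58) and Smp_031720 from 1783 to 3365 (0.92), and they held 21.2% and 25.5% of the class in tails.

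**Figure D2:**
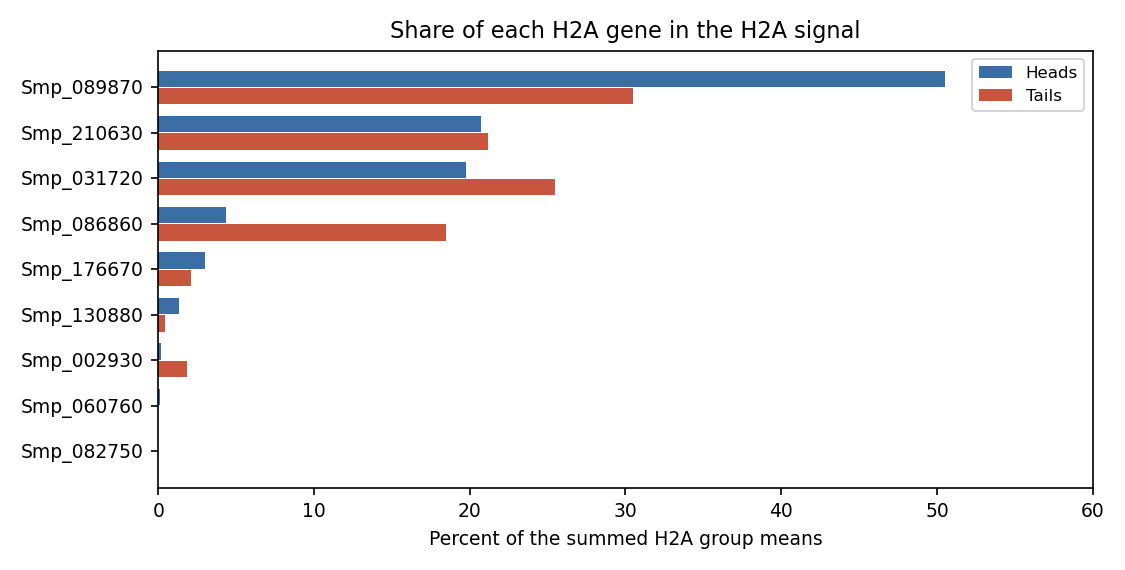
Percent of the summed group means of the 9 H2A genes that each gene contributed, in heads (blue) and tails (red), from the authors' means and without error bars because abundant genes have no values of single libraries. Smp_089870 fell from 50.5% of the class in heads to 30.5% in tails, and Smp_086860 stood at 4.32% and 18.5%.

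Of the 4 rarer H2A genes tested, 1 was higher in tails, 2 were lower and 1 did not pass. Smp_002930 had 11.4, 20.9 and 16.8 normalised counts in heads and 179, 252 and 304 in tails. All tail libraries were well above all heads, with a log2 fold change of 3.83 (SE 0.30, adjusted p = 8.36e-05, limma). Smp_130880 had 123, 128 and 119 in heads and 50.1, 48.2 and 65.7 in tails. The groups were tight and separate, and the log2 fold change was −1.17 (SE 0.20, adjusted p = 0.00166, limma).

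H2A Smp_060760 had almost all of its reads in heads, 17, 26 and 29 of them by library, against 1, 0 and 0 in tails. The single tail read was in the library of 0.72. From the summed reads the log2 ratio was −3.84 (exact 95% interval −9.17 to −1.32, counting error only), and limma gave −3.06 (SE 0.50, adjusted p = 0.00138) on the log2(value + 1) scale. In contrast, Smp_176670 had 298, 271 and 244 normalised counts in heads and 337, 287 and 222 in tails. These ranges overlapped and the log2 fold change was 0.04 (SE 0.18, adjusted p = 0.848, limma). The last H2A gene, Smp_082750, had no read in heads and 2 in tails, both in the library of 0.72, too few for a comparison.

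H2B pairs with H2A in the nucleosome, and nearly all its signal came from 1 gene. By in situ hybridization the paper found Histone H2B RNA of the vitellaria in small dividing cells, which it takes as likely S1 cells. The text of the paper does not name the gene of that probe. Smp_036220 had authors' means of 3719.7 and 6169 for heads and tails, a log2 ratio of 0.73 (0.30 with equal totals). Smp_077790 and Smp_108390 had 1 head read each and none in tails. A count of 0 in tails allows a mean of up to 2.16, so a difference was not detectable for either.

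H4, the most conserved core histone, was likewise represented by 1 abundant gene. Smp_053390 had authors' means of 4535.6 and 4100.4 for heads and tails. Its log2 ratio of −0.15 (−0.57 with equal totals) set it and H2A Smp_089870 apart from the abundant H1, H2B and H3 genes, whose ratios were 0.60 to 0.84, and these differences have no replicate error. The other gene, Smp_194870, had no read in any head library and 4, 0 and 3 reads in the tail libraries. Its tail mean of 4.98 was at least 11.6-fold higher than 3 reads over the head libraries would give. The tail library of 0.35 had none either, so the groups touched at 0.

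Summed over the 21 genes, histones took 0.285% of all counts in heads and 0.318% in tails. By class the log2 ratio of the summed means was 0.86 for H1, 0.55 for H2A, 0.73 for H2B, 0.62 for H3 and −0.14 for H4. Histone copies can be nearly identical in sequence, and no source used here says how reads matching several genes were counted, so the split between genes of a class is uncertain. Whether the libraries were made from polyadenylated RNA is not stated, and in animals the mRNAs of replication-dependent histones end in a stem-loop in place of a poly(A) tail. Smp_089860 (H3) and Smp_089870 (H2A) are neighbours in the gene order of the RefSeq annotation, yet their log2 ratios were 3.82 and −0.18.

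The regulators of histone genes and histone mRNA comprised 4 genes. Smp_137390, annotated as histone RNA hairpin binding protein, belongs to the family that binds the stem-loop of histone mRNAs and is needed for their processing and translation. It had 47.0, 106 and 125 normalised counts in heads and 279, 318 and 366 in tails. All tail libraries were above all heads, and the head library of 2.55 had the lowest value, as it had for H1 gamma, for nanos and for both tyrosinase genes. The log2 fold change was 1.88 (SE 0.35, adjusted p = 0.00232, limma). The part of vitelline RNA in the head values was not tested.

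The 2 genes annotated as histone H4 transcription factor differed less. Smp_042420 had 316, 339.7 and 346 in heads and 414, 468 and 438 in tails. Its groups were separate but close, with a log2 fold change of 0.40 (SE 0.11, adjusted p = 0.0142, limma) that became −0.029 with equal totals. The call was lost with equal totals (adjusted p = 0.827), without the mean-variance trend (0.0612) and without the head library of 2.55 (0.06) or of 2.35 (0.0524). Smp_101310 overlapped between the groups (log2 fold change 0.13, SE 0.15, adjusted p = 0.459, limma). The exonuclease Smp_029850, of a family that trims histone mRNA ends, had means of 1297 and 755 for heads and tails, with 891, 669.5 and 704 in the tail libraries, and the log2 ratio of −0.78 did not pass in the fit on tail libraries (adjusted p = 0.0759, limma). It passed without the tail library of 0.72 (log2 fold change −0.92, adjusted p = 0.0289) and with equal totals (−1.22, 0.0174).

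Acetyltransferases, which add acetyl groups to histones and in general mark active genes, had the member with the largest difference of all. Smp_165360, annotated as myst4, belongs to the MYST family. In heads its reads were 5, 314 and 718, or 1.96, 134 and 345 normalised counts, in the libraries of 2.55, 2.35 and 2.08. The head libraries thus differed by more than 100-fold, in the order seen for the tyrosinase genes. In tails the gene was too abundant to be solved, and the authors' mean was 13092 against 160.1 in heads. This was an 81.8-fold difference or 6.35 on the log2 scale (5.93 with equal totals), within the range of the 5 vitelline cell genes. The log2 ratio was 7.59 without the head library of 2.08 and 5.77 without that of 2.55. The gene was not tested, since both fits need the values of single tail libraries, and the part of vitelline RNA in the head values was not tested.

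Smp_165360 is the only member in the set of genes that the study cloned. Those clones served as probes in its in situ hybridization screen of head and tail genes. The text of the paper does not give the outcome for this gene. The primers that delimit the cloned part are shown because they mark the stretch of its transcript that was cloned. Both are written in lower case from the 5′ end, with no base marked.
myst4 forward: aatgcggcatagacctaacg
myst4 reverse: tcatatccttgggtgcactg

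Of the other 7 acetyltransferases, Smp_131320, a further MYST gene, had 178, 207 and 188 normalised counts in heads and 687, 567 and 376 in tails. Every tail library was above the heads, with a log2 fold change of 1.46 (SE 0.22, adjusted p = 0.000917, limma). The CBP/p300 gene Smp_105910, a coactivator and the acetyltransferase with the highest mean over both groups (myst4 was higher in tails), had authors' means of 3868 and 9619 (log2 ratio 1.31, 0.89 with equal totals). In contrast GCN5 Smp_070190, the catalytic subunit of the SAGA complex, had 1833 and 1329 (−0.46), and the MYST gene Smp_194520 had 694 and 509 ± 64.5 (−0.45, adjusted p = 0.237 in the fit on tail libraries, limma, and 0.0404 with equal totals). MYST2 Smp_198670 overlapped between groups, at 319, 369 and 349.8 in heads and 311, 374 and 335 in tails, and was called lower with equal totals (log2 fold change −0.45, adjusted p = 0.013, limma). The MYST genes therefore ranged from −0.45 to 6.35.

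Deacetylases, which remove acetyl groups, comprised 14 genes with sirtuins and complex subunits included. They had a median log2 ratio of −0.19 (−0.62 with equal totals), and 6 were above 0 (5 with equal totals). Smp_212790, annotated as a putative histone deacetylase, had 45.1, 59.2 and 58.5 normalised counts in heads and 153, 130 and 147 in tails. The groups were far apart for their spread, and the log2 fold change was 1.39 (SE 0.20, adjusted p = 0.00074, limma).

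A gene annotated as histone deacetylase 4, Smp_191310, was the only member other than a histone to be called lower in tails at the main settings. Under equal totals or without the tail library of 0.72 other such members were called lower, and each is given with its own values or in the closing section. Its head mean was 367, and the tail libraries had 84.8, 42.6 and 40.7 normalised counts from 61, 15 and 13 reads. This was 6.54-fold lower in tails (log2 fold change −2.77, SE 0.55, adjusted p = 0.0212, limma on tail libraries). The call was lost without the tail library of 0.35 (adjusted p = 0.071) or of 0.32 (0.0622). Where only solutions with each library within 3-fold of the group mean were allowed, its head reads were solved too. It was then lower by the same −2.77 with an adjusted p of 4.26e-05 (limma). That limit caps the spread between libraries in advance, so this p-value can be too low. The other gene of that annotation, Smp_069380, had 689.5 in heads and 529 ± 218 in tails, a log2 ratio of −0.38.

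The remaining deacetylases lay within 2-fold. The highest was the complex subunit sap18, Smp_085480 (means 1154 and 1821, log2 ratio 0.66), and the most abundant was the histone deacetylase Smp_005210 (2083 and 3066, 0.56). Histone deacetylase 6 Smp_138770, in mammals chiefly a tubulin deacetylase, had 831 and 602 (−0.46). Histone deacetylase 8 Smp_091990, a member studied as a drug target in this parasite, had 1656 and 2231 (0.43, 0.00 with equal totals). The sirtuins, which depend on NAD, ran from −0.41 for sirtuin 2 Smp_084140 (called lower with equal totals, adjusted p = 0.039, limma on tail libraries) to 0.56 for sirtuin 6 Smp_210340. The 2 lysine specific demethylases, Smp_150560 and Smp_169550, were at −0.29 and −0.41, with tail libraries of 775, 687 and 416 and of 498, 369 and 316. Neither passed the fit on tail libraries (adjusted p = 0.528 and 0.344, limma).

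**Figure D3:**
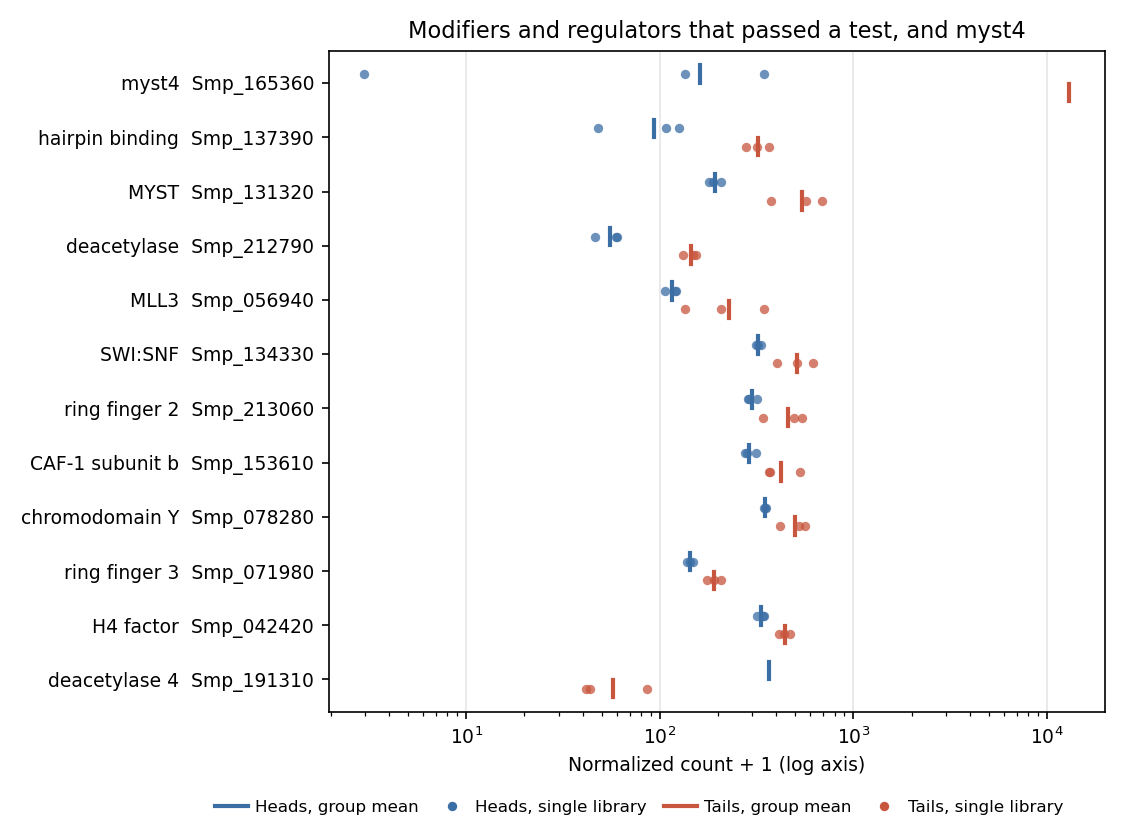
Normalised count plus 1 on a log axis for the modifiers and regulators that passed a limma test, and for myst4 Smp_165360, which was not tested. Bars are group means of 3 libraries and points single libraries (heads blue, tails red). The head points of myst4 spread from 1.96 to 345 before 1 is added. Deacetylase 4 Smp_191310, the bottom row, is the one gene with tails below the head mean. The rows just above it differ by less than 2-fold.

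Methyltransferases formed the largest class with 23 genes. Their median log2 ratio was 0.31 (−0.12 with equal totals), and 19 were above 0 as deposited but 10 with equal totals. The highest was Smp_160700, annotated as specific for a lysine of H3, with means of 416 in heads and 1574 in tails (log2 ratio 1.92, 1.49 with equal totals). It was not tested at the main settings. With solutions held within 3-fold of the group mean, which caps the spread, its log2 fold change was 1.89 (adjusted p = 2.7e-05, limma). Smp_152730, of the MLL3 family that methylates H3 at enhancers in mammals, had 524 and 1060.3 (1.02). The most abundant, Smp_138030, had 2568 and 3940.0 (0.62). At the other end, MLL5 Smp_161010 had 2956 and 2856 (−0.05), and SETDB Smp_127800 overlapped between groups with 342, 322 and 295 in heads and 477, 252 and 197 in tails. It was called lower without the tail library of 0.72 (log2 fold change −0.51, adjusted p = 0.0186, limma).

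Of the 5 methyltransferases tested with reads in both groups, 1 passed and was higher in tails. Of all genes so tested 22.2% were higher, a share near that of the class, and 41.5% were lower. Smp_056940, annotated as MLL3, had 120.4, 105 and 119 normalised counts in heads and 133, 343 and 207 in tails. The lowest tail library, that of 0.72, stood just above the heads, and the log2 fold change was 0.88 (SE 0.31, adjusted p = 0.0391, limma). The call was lost without the head library of 2.55 (0.0888), 2.35 (0.121) or 2.08 (0.091) and without the tail library of 0.35 (0.079) or 0.32 (0.0881). It was also lost with equal totals (log2 fold change 0.45, adjusted p = 0.225) and without the mean-variance trend (0.0677). The adjoining gene in RefSeq order, Smp_056930, bears the same annotation and had 2024 and 2918 (log2 ratio 0.53). The SET domain gene Smp_137030, named after its values were seen, was the fifth member at least 2-fold lower in tails. It rested on 29 head and 2 tail reads, with overlapping libraries (adjusted p = 0.18, limma).

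Polycomb proteins keep genes silent by modifying histones. The 7 genes of this class were chosen by the words of their annotation, not by that function. They include an enhancer of polycomb, while E(z) Smp_078900 (log2 ratio 0.39) stands among the methyltransferases. All 7 were above 0 (5 with equal totals), within a narrow range of 0.32 to 0.72. The highest was EED Smp_165220, a core subunit of the methylating polycomb complex, with 387 in heads and 445, 706 and 764 in tails (log2 ratio 0.72, adjusted p = 0.197 in the fit on tail libraries, limma). It passed without the tail library of 0.72 (0.0263, limma). With reads in both groups it passed when solutions were held within 3-fold of the group mean, which caps the spread (0.0116, limma). The polyhomeotic gene Smp_175040 had 1584 and 2312 (0.55) and the enhancer of polycomb Smp_014400 had 1689.6 and 2113 (0.32). The ring finger genes were tested in both groups. Smp_213060 had 285, 289 and 318 in heads and 342, 539 and 495 in tails (log2 fold change 0.60, SE 0.18, adjusted p = 0.0202, limma). Smp_071980 had 138, 147 and 142 in heads and 174, 190.1 and 207 in tails (0.41, SE 0.14, adjusted p = 0.0345, limma), and −0.015 with equal totals. The groups were separate for both genes, by less than 2-fold. The first call was lost with equal totals (log2 fold change 0.17, adjusted p = 0.415), without the mean-variance trend (0.0539), without the head library of 2.55 (0.0711) or 2.35 (0.075) and without the tail library of 0.35 (0.0634) or 0.32 (0.0595). The second was lost with equal totals (0.933), without the trend (0.0595), without each head library in turn (0.0896, 0.0787 and 0.0946) and without the tail library of 0.35 (0.0573) or 0.32 (0.0614).

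Chaperones and assembly factors carry histones to DNA. The nucleosome assembly protein Smp_023530, which escorts H2A and H2B, was highest and most abundant with means of 3438 and 6744 (log2 ratio 0.97, 0.54 with equal totals). Subunits of chromatin assembly factor 1, which deposits H3 and H4 behind the replication fork, differed in sign. Subunit b Smp_153610 had 274, 283 and 312 in heads and 369.9, 531 and 366 in tails. The tail libraries were all above the heads, and 1 of them, that of 0.35, was well above the rest (log2 fold change 0.52, SE 0.17, adjusted p = 0.026, limma). Without that library the adjusted p was 0.0506, and without the head library of 2.55, 2.35 or 2.08 it was 0.0891, 0.0885 or 0.055. With equal totals the log2 fold change was 0.096 (adjusted p = 0.625), and without the mean-variance trend the adjusted p was 0.0665. Subunit A Smp_169140 had 1849 and 1298 (log2 ratio −0.51), and the small subunit Smp_068950 had 766 and 1033 ± 223 (0.43). Smp_212210, a chromatin specific transcription elongation factor, overlapped between groups (−0.03, SE 0.24, adjusted p = 0.93, limma) and was called lower without the tail library of 0.72 (−0.32, 0.0304).

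Chromodomain genes encode readers of methylated histones and the CHD remodellers. The highest of 6 was the helicase Smp_130470 with 1470.0 and 3164 (log2 ratio 1.11, 0.68 with equal totals), followed by Smp_128600 with 813 and 1377 (0.76). The most abundant, Smp_079650 (annotated as CHD4), had 3576 and 5528 (0.63), and Smp_041760 had 2329 and 2436 (0.06). The helicase Smp_123320 was lowest, with 674 in heads and 577, 397 and 432 in tails (−0.52, adjusted p = 0.217 in the fit on tail libraries, limma, and 0.0437 with equal totals). Chromodomain Y protein 2 Smp_078280 had 354, 348 and 346 in heads and 520.1, 562 and 419 in tails. Heads were nearly identical, all tails were higher, and the log2 fold change was 0.51 (SE 0.13, adjusted p = 0.0115, limma) but 0.08 with equal totals (adjusted p = 0.613).

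SWI:SNF and other remodellers use ATP to shift nucleosomes. Of 10 genes, 8 were above 0 (5 with equal totals). Smp_154640 and Smp_022310, both SWI:SNF members, were highest, with 1727 and 3246 (log2 ratio 0.91) and 2226 and 4122 (0.89). Smp_134330 had 314, 320.1 and 334 in heads and 402, 621 and 513 in tails. All tails were above the tight head group, with a log2 fold change of 0.64 (SE 0.16, adjusted p = 0.0103, limma), but 0.22 with equal totals (adjusted p = 0.27). The SMARCC2 subunit Smp_152650 had 2702 and 2648 (−0.03). The lowest was Smp_148010, a SNF2 helicase with a histone linker and PHD domain in its annotation, with 1046 in heads and 799.6, 797 and 576 in tails (−0.53, adjusted p = 0.198 in the fit on tail libraries, limma, and 0.0383 with equal totals).

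The bromodomain genes, readers of acetylated histones, differed little. None of the 8 reached 2-fold, the range was −0.13 to 0.50, and 6 were above 0 as deposited but 1 with equal totals. None passed at an adjusted p under 0.05 by limma in the 2 tested with reads in both groups (1 at an unadjusted p under 0.05) or the 6 tested in tails (0). Of all genes tested, 22.2% were higher and 41.5% lower in the first fit, and 6.73% and 15.5% in the second. Smp_083790 was highest (491 in heads and 634, 709 and 745 in tails). With reads in both groups it passed when solutions were held within 3-fold of the group mean, which caps the spread (log2 fold change 0.50, adjusted p = 0.00366, limma). By mean over both groups the most abundant was Smp_147950 (1515 and 1829.9, log2 ratio 0.27). Smp_097110 had 245, 219 and 238 in heads and 363, 332 and 250.4 in tails, which did not overlap (0.41, SE 0.16, adjusted p = 0.0576, limma), and passed without the tail library of 0.32 (0.00711). The testis specific bromodomain gene Smp_164080, low in both groups, had 40.8, 47.3 and 47.5 in heads and 62.6, 39.7 and 21.9 in tails. The tail values lay on either side of the heads, and Smp_213960 was also near 0 (−0.05). The methyl CpG binding gene Smp_138180 had 1521 and 1781 (0.23).

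A further 2 members were taken by a word in their annotation and do not modify histones. NHP2 Smp_104660, in other eukaryotes a protein of the small ribonucleoproteins that guide RNA pseudouridylation, had means of 958 and 2809.8 (log2 ratio 1.55). The chmp1 gene Smp_055880, of the ESCRT membrane machinery, had 1858 and 2242 (0.27).

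**Figure D4:**
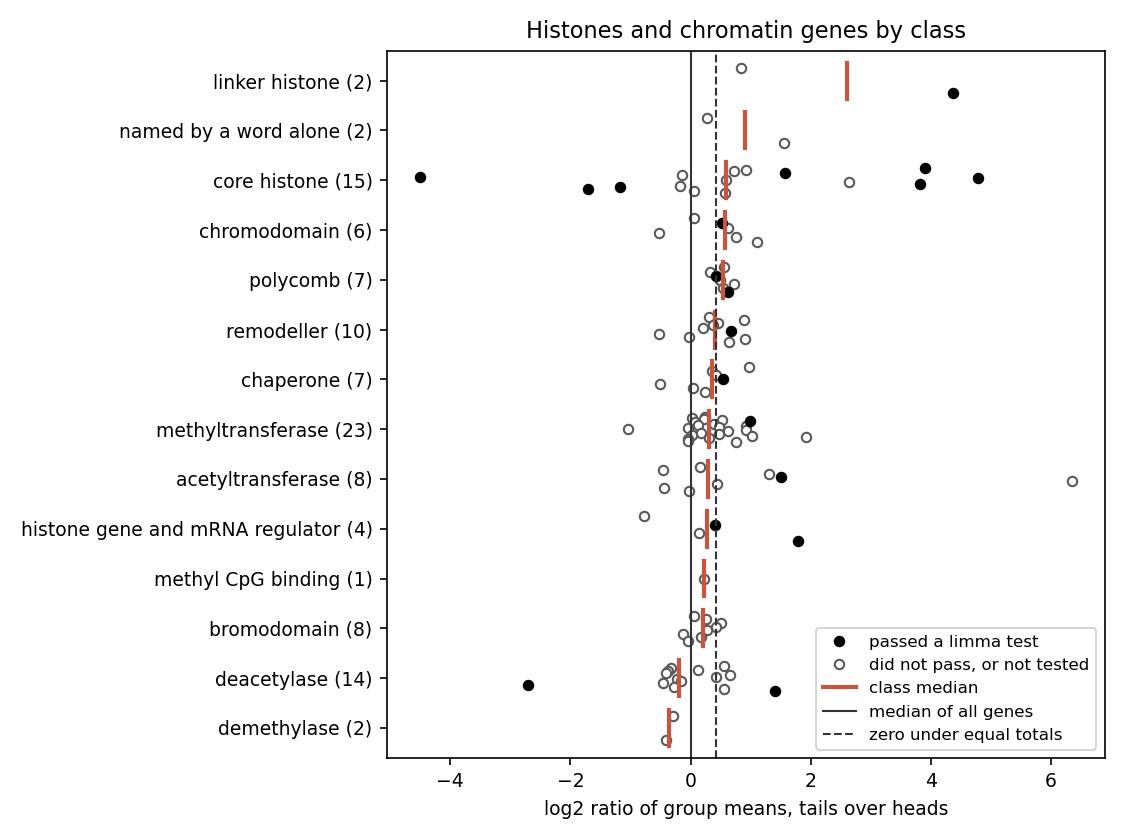
log2 ratio of group means (tails over heads) for the 109 members with reads in both groups, by class, with the number of genes in brackets. Points are genes (filled if they passed either limma test), red bars class medians, the solid line the median of all genes at 0.00, and the dashed line at 0.43 the place of no difference with equal totals. Core histones spread from −4.51 to 4.79, myst4 stands alone at 6.35 among the acetyltransferases, and most other genes lie between −1 and 1.

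To place these values, the genes of DNA replication were listed by annotation, since histone supply and DNA copying go together in dividing cells. Of 43 genes 42 had reads in both groups. Their median log2 ratio was 1.14 (0.71 with equal totals). At least 2-fold higher in tails were 24 and 0 were lower, against 14.4% and 23.7% of all genes with reads in both groups. By limma with reads in both groups, 16 of 20 tested were higher and 0 lower (17 and 0 at an unadjusted p under 0.05). Of all genes so tested 22.2% were higher and 41.5% lower. The catalytic subunit of DNA polymerase alpha, Smp_178260, had 80.4, 161 and 163 in heads and 523, 797 and 667 in tails (log2 fold change 2.34, SE 0.29, adjusted p = 0.000446, limma). Smp_079560, annotated as the helicase subunit MCM2, had a log2 fold change of 2.06 (SE 0.31, adjusted p = 0.00103, limma). Smp_054840, of the same annotation and more abundant, had means of 355 and 1098 (log2 ratio 1.63) and was not tested. The polymerase gene was lowest in the head library of 2.55 and in the tail library of 0.72, as H1 gamma was.

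Chromatin genes that the rule does not take, such as chromobox, arginine methyltransferase, cohesin, high mobility group and PHD finger genes, were listed in the same way. Their 50 genes had a median of 0.13 (−0.30 with equal totals). By limma with reads in both groups, 2 of 10 tested were higher in tails and 0 lower. The counts were the same at an unadjusted p under 0.05. Of all genes so tested 22.2% were higher, a share near that of the list, and 41.5% were lower. Of the 50 genes 3 were at least 2-fold higher, against 14.4% of all genes with reads in both groups. Among them were arginine methyltransferase 5 Smp_171150 (674 and 1972, log2 ratio 1.55) and enhancer of zeste Smp_164650 (3109.8 and 6348, 1.03). At least 2-fold lower were 2 of the 50, against 23.7% of all such genes. Among them was the high mobility group gene Smp_103530 (1192 and 345, −1.79, adjusted p = 0.0306 in the fit on tail libraries, limma).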

How the data were processed

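RNA of heads and tails of female worms was sequenced from TruSeq stranded libraries. Mapping by the authors was with STAR 2.5.0b, on the WormBase ParaSite v4 genome with its annotation. The sources used here do not name the tool that counted reads. In the deposited signal values, counts were scaled by the authors with the size factors of DESeq (version 1.22) and averaged per group. The table also holds the authors' fold change, its log2, a p-value and an adjusted p-value of tails against heads, which were not used, and 0 columns of single libraries.

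From the means, size factors and whole reads per library were solved. Heads had 1 solution in 97.1% of genes with a mean under 400, tails in 91.1% under 1500. Normalised counts (log2 of the value + 1) were tested with limma 3.58.1 (R 4.3.3) with a mean-variance trend, two-sided. Benjamini-Hochberg adjustment was over the genes tested, those with 1 solution in each group and at least 10 reads. The second fit took tail libraries and the head mean as 1 sample, assumed to vary like a tail library, for an overall mean of at least 10. Adjusted p under 0.05 counted as called. The scripts were tested on simulated data. Intervals cover counting error only. Libraries were from separate RNA extractions of pooled fragments. Where worms were not collected separately, p-values measure technical spread.

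Members and lists were chosen with earlier results of these data known. Named genes were all histones, and per class the 2 highest and 2 lowest ratios with an overall mean of at least 10, the most abundant gene and every gene that passed. A few others, for contrast, were named after their values were seen. RefSeq gene order (assembly ASM23792v2, 99 of 113 members matched) served for neighbours only. Transcript lengths were not used, so levels are not compared between genes per length.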

Additional observations from a re-analysis of the deposited data

How the results depend on the processing

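No paired analysis was possible because libraries solved from group means carry no replicate number, although the sample titles share numbers. In the fit with reads in both groups, scaling to equal totals gave 8 members of 28 higher in tails and 5 lower. Over all 3932 genes it gave 540 higher in place of 873 and 2177 lower in place of 1632. Leaving out 1 library gave 10 to 15 members higher and 3 to 5 lower (all genes: 703 to 903 higher and 1283 to 1816 lower). Without the mean-variance trend 10 members were higher (all genes: 790). Solutions within 3-fold of the group mean gave 22 higher and 3 lower of 39 (all genes: 1198 higher and 1673 lower of 4246). That limit caps the spread between libraries in advance. The signs of 7 of the 28 members turned with equal totals, Smp_042420, Smp_043580, Smp_055310, Smp_071980, Smp_097110, Smp_101310 and Smp_176670, to −0.029, −0.41, −0.20, −0.015, −0.017, −0.30 and −0.39. In the fit on tail libraries, the signs of 18 of 58 turned with equal totals, which gave 8 lower in place of 1 (Smp_029850, Smp_084140, Smp_123320, Smp_130880, Smp_148010, Smp_169450 and Smp_194520 beside Smp_191310), and leaving out 1 tail library gave 4 to 14 higher and 0 to 3 lower. Over all genes that fit called 402 higher and 927 lower, with equal totals 256 and 2021, without a trend 259 higher, without the tail library of size factor 0.72 619 and 1624, of 0.35 89 and 110, of 0.32 153 and 239, and adding 10 in place of 1 1419 lower. For group means, 34 members were at least 1.5-fold and 6 at least 4-fold higher in tails. Lower were 2 at 4-fold, 3 after adding 10 to both means, 3 at an overall mean of at least 10 and 2 at 100. Of 18 members called in the first fit, 11 were called under each alternative that tested them (13 for each gene, 12 for Smp_060760), as were 4 of 9 in the second (8 for each gene, 7 for Smp_074610). Leaving single libraries out of the ratios of group means was chosen after seeing the data. Causes were not tested. The tail depth limits genes of few reads, and 53 members could not be tested in either fit.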

Other observations

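The 3 genes left out for the zinc finger in their annotation are all named bromodomain adjacent to zinc finger domain. Smp_017670 had normalised counts of 275, 276 and 257 in heads and 558, 772 and 548 in tails, with no overlap (log2 ratio of group means 1.21). Smp_170760 had an authors' mean of 898 in heads and 292, 116 and 172 in the tail libraries (log2 ratio −2.21, adjusted p = 0.0268, limma on tail libraries). Smp_131880 had means of 728 and 1229.8 (0.76). Genes of 1 annotation thus differed in both directions.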
